A study of Oncorhynchus mykiss with 3 samples.

Results

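Neural miRNAs were present among the small RNAs of ovulated rainbow trout eggs, and 85.5% of their reads came from miR-9. They were taken here as all entries of the known miRNA table of the families miR-9, miR-124, miR-128, miR-129, miR-132, miR-137, miR-138, miR-153, miR-212 and miR-219, with both arms and all sequences. This gave 44 of the 575 known names and 61 of the 1059 known sequences, where names are finer than the numbering of the deposited table, in which the 44 names are 35 entries. The eggs of rainbow trout (Oncorhynchus mykiss) from commercial populations were sampled at 3 ages. D1PO eggs were taken on day 1 post-ovulation and are labelled with a survival rate of 91.8%, D7PO eggs on day 7 with 73.4%, and D14PO eggs on day 14 with less than 50%. The study reports these same values as fertilization rates, scored by cleavage of embryos. The fish were kept on commercial feed in treated spring water over more than 1 generation. Coelomic fluid was removed from the eggs, and the RNA of different females was pooled into 1 library for each age. The deposited count is 1 number of reads for each unique sequence and names no library, so no egg age was compared with another. How the number was made from the 3 libraries is not stated, and its total over known miRNAs is above the study's own total of reads matched to miRBase, so it may not be a plain sum of reads. Each interval is at the 95% level, an exact Poisson interval where it follows a number of reads and a Clopper-Pearson interval where it follows a share. They hold only if the numbers are plain counts of reads, and they cover counting error only.

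A miRNA is cut from the arms of a hairpin RNA, named 5p and 3p, and guides a silencing complex to mRNAs mainly through its seed, the bases 2 to 8 from its 5′ end. The families described here are known for their high levels in the vertebrate nervous system. In zebrafish, miR-9 acts in neural progenitors, and in mammals miR-124 is known from differentiated neurons and miR-219 from oligodendrocytes, the cells that make myelin. All 10 families had reads, and for miR-137 and miR-212 only 1 arm was listed. The samples were labelled as eggs, and whether such reads came from the egg or from other cells taken with it was not tested. In pooled RNA, fewer cells with a miRNA and less of it in each cell cannot be told apart.

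The leading sequences of each family are shown first because the families are told apart by them. For miR-132 this is the leading sequence with a genome position, and a 15-nt sequence with more reads is shown further on. Seeds are in capitals, and all are written 5′ to 3′ as deposited.
omy-miR-9-5p: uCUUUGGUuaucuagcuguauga
omy-miR-9-4-3p: uAAAGCUAgagaaccgaaugua
omy-miR-124-3p: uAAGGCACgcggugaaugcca
omy-miR-128-3p: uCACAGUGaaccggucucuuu
omy-miR-132-3p: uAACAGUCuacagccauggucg
omy-miR-129-3p: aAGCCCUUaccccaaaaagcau
omy-miR-129-5p: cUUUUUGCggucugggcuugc
omy-miR-153c-3p: uUGCAUAGucacaaaaaugauc
omy-mir-219-2-3p: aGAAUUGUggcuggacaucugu
omy-miR-138-5p: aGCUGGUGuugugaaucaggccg
omy-miR-137-3p: uUAUUGCUuaagaauacgcgu
omy-miR-212a-5p: aCCUUGGCuuuagacugcuuacu
The 61 sequences had 37 seeds, of which 9 were shared by several names and none by different families of the list. This holds for the listed sequences only, and no 3p name of miR-212 was among them. The seed of omy-miR-9-5p was read in 104383 reads or 71.9% of the reads of neural miRNAs. None of these 12 seeds occurred in a known name outside the 10 families. Of all 37 seeds 1 did, UUUGUGA of omy-mir-153a-5p, which was found in 1 other known name with 51 reads. How often families share a seed over all known miRNAs was not computed.

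The neural miRNAs held 145106 of 7684127 reads of known miRNAs, or 1.89% (1.88 to 1.90). Without the miR-9 family the other 9 families held 21051 reads, 0.274% (0.270 to 0.278). By name the reads were lower than those of known miRNAs in general, with a median of 156 reads against 286 over all 575 names. Of the 44 names, 10 or 22.7% had 1000 or more reads and 19 or 43.2% had fewer than 100, while the same shares over all known names were 35.3% and 34.6%. The 10 abundant names held 95.9% of the neural reads, and the 19 rare names 0.473%. No sequence of the table has fewer than 10 reads, so a rarer form would not be listed.

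**Figure D1:**
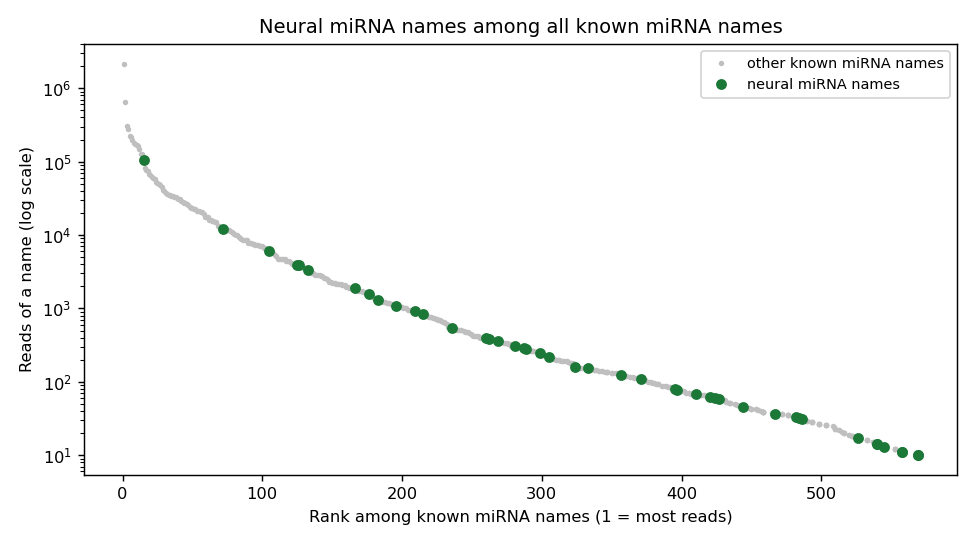
Reads of each known miRNA name on a log scale against its rank among the 575 names, with the 44 neural names in green. omy-miR-9-5p is at rank 15 with 103918 reads, and the other neural names spread from rank 72 to the end of the list at 10 reads.

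By family, miR-9 had 124055 reads (123366 to 124747), rank 14 of 140 families with the let-7 names counted as 1 family. It was followed by miR-124 with 7493 (7324 to 7665), 16.6-fold lower, and miR-128 with 4145 (4020 to 4273). Then came miR-132 with 3639 (3522 to 3759), miR-129 with 2239 (2147 to 2334), miR-219 with 1376 (1304 to 1451) and miR-153 with 1225 (1157 to 1296). The rarest were miR-138 with 430 (390 to 473), miR-137 with 405 (367 to 446) and miR-212 with 99 (80.5 to 120.5). Of neighbours in this order only miR-138 and miR-137 had overlapping intervals. The order of miR-132 and miR-129, of miR-219 and miR-153 and of miR-138 and miR-137 was the opposite when sequences without a genome position were left out, at 1767 and 2239, 632 and 1211, and 335 and 405 reads. With the most abundant sequence of each name only, miR-132 was above miR-128, at 3639 and 3607 reads.

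**Figure D2:**
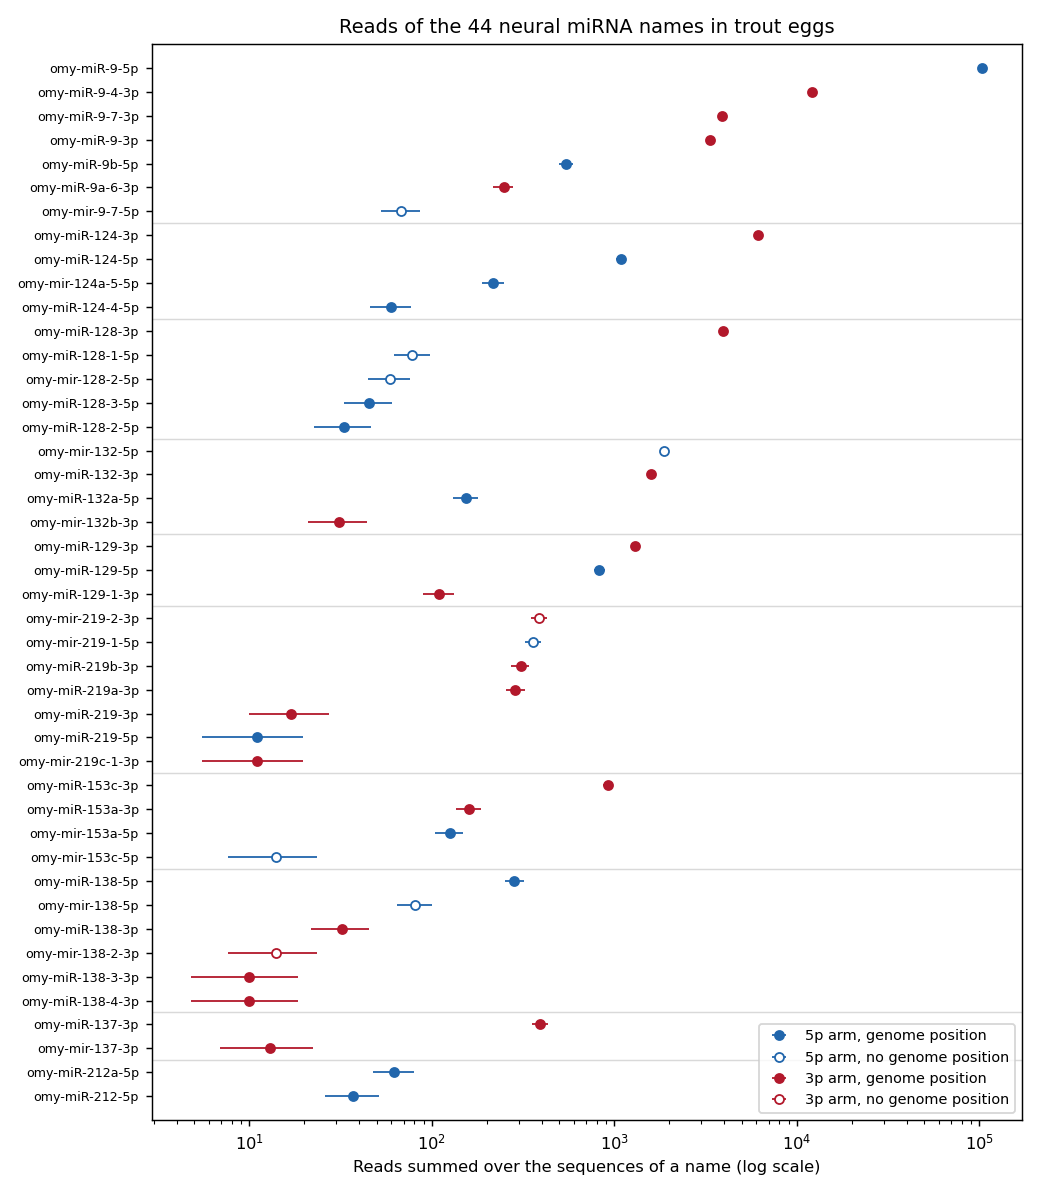
Reads of each of the 44 neural names on a log scale, grouped by family, with 5p names in blue and 3p names in red. Open circles are names without any genome position and bars are 95% Poisson intervals. The miR-9 names reach from 68 to 103918 reads, and omy-mir-132-5p, at 1872 reads, is the highest of the open circles.

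The miR-9 family held 85.5% of the neural reads. omy-miR-9-5p, which in zebrafish restrains genes of the hairy family in neural progenitors, had 103918 reads (103287 to 104552), and 99.9% of these were its 23-nt sequence. That sequence alone held more reads than the other 60 neural sequences together. A variant with U19A, omy-miR-9b-5p, had 545 reads (500 to 593), 25 of them in a 28-nt sequence that shares 22 bases with omy-miR-9-5p and ends in a run of U. The substitution is that of its main sequence, where position 1 is the 5′ base of omy-miR-9-5p. The base before the position number is that of the first miRNA and the base after it that of the second, here and below. The third 5p name, omy-mir-9-7-5p, is a 17-nt sequence with 68 reads and no genome position.

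The 3p arm of miR-9 was read as 4 names that differ at positions 10, 11 and 19, each with its own listed position in the genome.
omy-miR-9-3p: uAAAGCUAgauaaccgaaagua
omy-miR-9-4-3p: uAAAGCUAgagaaccgaaugua
omy-miR-9-7-3p: uAAAGCUAgagaaccgaaagua
omy-miR-9a-6-3p: uAAAGCUAgcuaaccgaaugua
Counted from omy-miR-9-3p, omy-miR-9-4-3p carries U11G and A19U, omy-miR-9-7-3p carries U11G and omy-miR-9a-6-3p carries A10C and A19U. All 4 share the seed. omy-miR-9-4-3p had 12072 reads (11858 to 12289), or 61.8% (61.1 to 62.5) of the reads of the arm. omy-miR-9-7-3p had 3874 (3753 to 3998), omy-miR-9-3p had 3331 (3219 to 3446) and omy-miR-9a-6-3p had 247 (217 to 280). One sequence thus held most reads of the 3p arm, and the next 2 had similar levels with intervals that do not overlap.

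The hairpins of the miR-9 names lie at 6 positions. The coordinates are those of the deposited table, and the sources used here name no genome build for them. The hairpin of omy-miR-9-4-3p was placed on chr_8, plus strand, from 3362007 to 3362102, and omy-miR-9-7-3p on chrUn, minus strand, from 748951428 to 748951504. The main sequence of omy-miR-9-5p and both sequences of omy-miR-9-3p were placed at the same hairpin on chrUn, minus strand, from 588871676 to 588871756. At that position 96.9% (96.8 to 97.0) of the reads were of the 5p arm. However, each sequence has 1 listed position only, so the reads of arms that are alike in several copies of the gene cannot be told apart, and this share is that of the listed position. The same limit holds for the 5p share of each other hairpin given below. Over all miR-9 names the 5p share was 84.3% (84.1 to 84.5).

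miR-124 was read mainly from its 3p arm, with 6126 reads of omy-miR-124-3p (5974 to 6281) and 1367 reads of 3 names of the 5p arm. omy-miR-124-3p is the arm known in mammals to repress transcripts of other tissues in neurons. It was read as a 21-nt sequence in 64.6% (63.3 to 65.8) of its reads and with 1 more A at the 3′ end in the remaining 35.4%, with the same seed. omy-miR-124-5p had 1090 reads, spread in the same way over a form of 22 nt with 586 reads and a form of 23 nt with 504. Both arms were placed at 31231558 to 31231634 of chrUn on the plus strand, where 15.1% (14.3 to 16.0) of the reads were 5p. omy-miR-124-3p was the only 3p name, so all 3p reads of the family were counted at this hairpin. Each of the other 5p names had its own position, omy-mir-124a-5-5p with A10G against omy-miR-124-5p and 217 reads, and omy-miR-124-4-5p with C1U and C12U and 60 reads.

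miR-128, known in mammals from neurons, was read from the 3p arm in 94.8% (94.1 to 95.5) of its reads. omy-miR-128-3p had 3930 reads (3808 to 4055), 3439 of them as the 21-nt sequence and 491 with 2 more U at the 3′ end. The 5p arm had 4 names with 33 to 78 reads each. Of these, omy-miR-128-1-5p, omy-miR-128-2-5p and omy-miR-128-3-5p share the seed GGGGCCG. The fourth, omy-mir-128-2-5p, is a 15-nt sequence with 59 reads, another seed and no genome position.

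miR-132 and miR-212 are neighbours in vertebrate genomes, and in mammals both are known to respond to neuronal activity. In the table omy-miR-212a-5p lies at 465639367 to 465639456 of chrUn, plus strand. The hairpin of omy-miR-132a-5p is at 465639913 to 465639974 of the same strand, with 456 bases between the hairpins. omy-miR-132a-5p, the only 5p name of miR-132 with a genome position, had an interval of 130 to 179 reads, and omy-miR-212a-5p had 62 reads (47.5 to 79.5). Both were thus rare, and the intervals do not overlap. A second miR-212 name, omy-miR-212-5p, carries U10C against omy-miR-212a-5p, had 37 reads (26.1 to 51.0) and lies elsewhere on chrUn, from 658018209 to 658018303. No 3p name of miR-212 was listed.

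The main 3p arm, omy-miR-132-3p, had 1583 reads (1506 to 1663). It was listed at a hairpin on chrUn_24, minus strand, from 13143191 to 13143280. Whether other copies of the gene gave some of these reads cannot be told from 1 listed position. A second 3p name, omy-mir-132b-3p, had 31 reads (21.1 to 44.0), with G6A, C11A and U17C against omy-miR-132-3p, so that its seed differs. Its hairpin lies on the minus strand from 465639866 to 465639935 of chrUn and shares 23 bases with that of omy-miR-132a-5p on the plus strand. The 2 sequences are shown with their complementary run of 20 bases in capitals.
omy-miR-132a-5p: ACCGUGGCUUUAGAUUGUUAcu
omy-mir-132b-3p: UAACAAUCUAAAGCCACGGUcg
The reads of the 2 names are therefore complementary over most of their length, and they were deposited as different strands of 1 place in the genome.

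The entry with the most reads in the miR-132 family was omy-mir-132-5p, a 15-nt sequence with 1872 reads (1788 to 1959) and no genome position. With it, 5p names held 55.6% (54.0 to 57.3) of the reads of the family, and without it 8.66% (7.39 to 10.07). The arm read more often therefore depended on this 1 sequence. Its longest run of bases shared with another miR-132 sequence was 7, with omy-miR-132-3p, and its longest run shared with a known sequence of another family was 8.

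miR-129, known from the brain in mammals, was read from both arms. omy-miR-129-3p had 1303 reads (1233 to 1376) and omy-miR-129-5p 827 (772 to 885), both placed at 124859587 to 124859670 of chrUn on the plus strand. The 5p share there was 38.8% (36.7 to 40.9), so neither arm was rare. omy-miR-129-1-3p, listed at a second position, carries C20U against omy-miR-129-3p and had 109 reads (89.5 to 131.5).

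miR-153, which in zebrafish regulates the release of synaptic vesicles, was read mainly from its 3p arm. omy-miR-153c-3p had 927 reads (868 to 989) and omy-miR-153a-3p, with A17G, had 159 (135.2 to 185.7). The first thus held 85.4% (83.1 to 87.4) of the arm. For miR-153a both arms were listed at a hairpin on chrUn_28, minus strand, from 10328250 to 10328330, with 125 reads of omy-mir-153a-5p and a 5p share of 44.0% (38.2 to 50.0).

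miR-138, known in rat neurons from dendritic spines, was the family beside miR-9 and miR-212 that was read mainly from 5p among sequences with a position. omy-miR-138-5p had 283 reads (251 to 318) and omy-miR-138-3p 32 (21.9 to 45.2), at a hairpin on chrUn_1, plus strand, from 45325389 to 45325484, a 5p share of 89.8% (86.0 to 92.9). omy-miR-138-3-3p and omy-miR-138-4-3p, with 10 reads each, are alike over the 21 bases of the shorter and were placed at different positions. miR-137, a regulator of neuronal maturation in mammals, was listed as 3p only. omy-miR-137-3p had 392 reads (354 to 433) in 4 sequences, of which 25 reads carry A10G against the main sequence and were placed at another hairpin on chrUn, minus strand, from 145953890 to 145953981. An 18-nt sequence named omy-mir-137-3p, with 13 reads (6.92 to 22.2), was placed over the same bases, from 145953912 to 145953985.

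The miR-219 family had 7 names, 4 with 287 to 386 reads and 3 with 11 to 17. Its 5p arm is known in mouse to promote the maturation of oligodendrocytes, and its only name with a genome position, omy-miR-219-5p, had 11 reads (5.49 to 19.7). The 3p arm was read as 3 related sequences that share the seed and differ at positions 9 to 11.
omy-mir-219-2-3p: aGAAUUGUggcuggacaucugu
omy-miR-219a-3p: aGAAUUGUgcauggacaucugu
omy-miR-219b-3p: aGAAUUGUaucuggacaucugu
omy-mir-219-2-3p had 386 reads (348 to 426), omy-miR-219b-3p 306 (273 to 342) and omy-miR-219a-3p 287 (255 to 322). The intervals of the last 2 overlap, and the first lies above both. Of the reads of omy-miR-219b-3p, 25 were of another sequence that shares a run of 21 bases with omy-miR-219-3p, a name with 17 reads. omy-mir-219-2-3p has no genome position, although its letters differ from each placed form at 2 bases only. An 18-nt sequence, omy-mir-219-1-5p, had 358 reads (322 to 397) and no position, and it held most of the 5p reads of the family.

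Over all neural miRNAs, 75.8% (75.5 to 76.0) of the reads were of 5p names, most of them of miR-9. By family, 5p names held the larger part for miR-9, miR-132, miR-138 and miR-212, and 3p names for miR-124, miR-128, miR-129, miR-137, miR-153 and miR-219. For miR-132 the side changed without sequences that lack a position, as given above, and for the other 9 families it did not. For miR-219 the 5p share fell from 26.8% (24.5 to 29.2) to 1.74% (0.872 to 3.09) without them. For miR-128 it fell from 5.19% to 1.95% (1.54 to 2.42), and it was 1.48% with sequences of at least 50 reads only. For miR-153 it was 11.3%, and with names spelled miR only no 5p name was left.

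**Figure D3:**
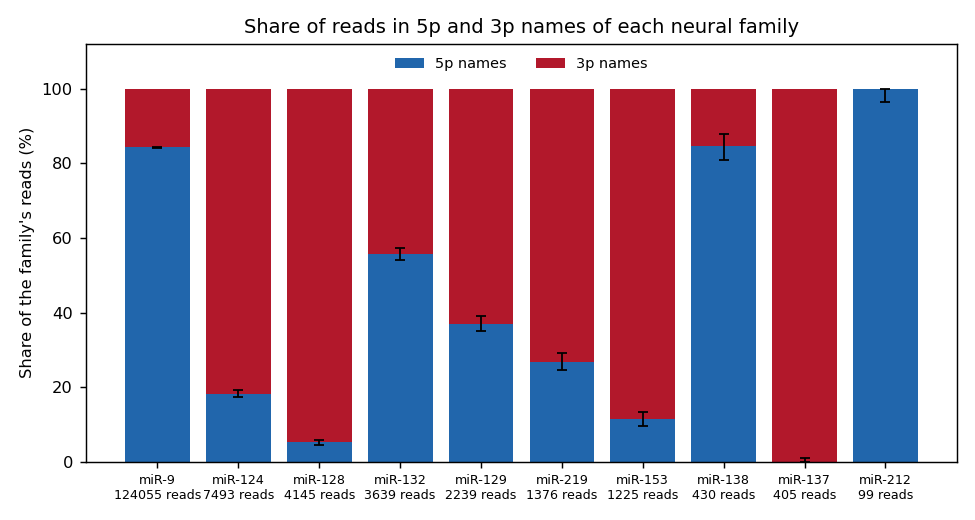
Share of the reads of each family in 5p names (blue) and 3p names (red), in percent, with families in order of reads and 95% Clopper-Pearson intervals of the 5p share as bars. miR-9 and miR-138 are near 84% 5p, miR-128 is 5.19% 5p, and miR-132 is 55.6% 5p with omy-mir-132-5p, a sequence of 15 nt, included.

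The arms of 5 hairpins paired in a duplex, computed from the most abundant sequence of each arm. The predicted energy was -22.8 kcal/mol for miR-9, -21.9 for miR-124, -21.4 for miR-129, -24.5 for miR-138 and -17.0 for miR-153a, with 14 to 16 base pairs. The 3′ ends were left over by 1 to 3 bases for the first 4 and by 4 and 5 bases for miR-153a. Cutting by the enzymes that make miRNAs is known to leave short 3′ overhangs. By contrast, omy-miR-219-5p and omy-mir-219c-1-3p, listed at 1 hairpin with 11 reads each, formed 3 base pairs at -3.0 kcal/mol. The hairpin listed for omy-miR-219-3p, with 17 reads, runs from 482165821 to 482165916 and covers all 62 bases of that hairpin. A duplex of omy-miR-219-5p with omy-miR-219-3p was not computed, because only arms with identical listed positions were paired.

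A shifted 5′ end, which changes the seed, was listed for 5 of the 44 names and made up 1.14% (1.08 to 1.19) of the neural reads, beside 1.33% over all known miRNAs and 77 of 575 names. Of these 1647 reads, 1440 were of omy-miR-9-3p, which had 3331 reads, so that 43.2% (41.5 to 44.9) of it began 1 base earlier. The main and the earlier form are shown with their seeds.
omy-miR-9-3p, 1891 reads: uAAAGCUAgauaaccgaaagua
omy-miR-9-3p, 1440 reads: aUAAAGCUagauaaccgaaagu
The other 3 names of the arm were listed with 1 start only, so the earlier start made up 7.38% (7.01 to 7.75) of the 3p reads of miR-9. For omy-miR-9-5p it was 80 of 103918 reads or 0.0770% (0.0610 to 0.0958). These reads were listed at another hairpin than its main sequence, on chrUn_2, plus strand, from 35669901 to 35669987. Among rare names, other starts held 39.2% (30.6 to 48.3) of the 125 reads of omy-mir-153a-5p, 28.4% (20.2 to 37.9) of the 109 of omy-miR-129-1-3p and 12.0% (8.94 to 15.62) of the 392 of omy-miR-137-3p.

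In size the neural sequences resembled known miRNAs as a whole. Sequences of 20 to 24 nt made up 51 of 61, or 83.6% (71.9 to 91.8), and 75.9% of all known sequences. The median was 22 nt in both, and the neural sequences reached from 15 to 28 nt. Of the neural reads, 93.6% were in sequences that begin with U, and of all known reads 82.7%, while by sequence the shares were 44.3% and 44.4%. omy-miR-9-5p alone held 71.6% of the neural reads, and its main sequence begins with U. The higher share by reads therefore rests largely on that name and is not a trait of the neural names in general.

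**Figure D4:**
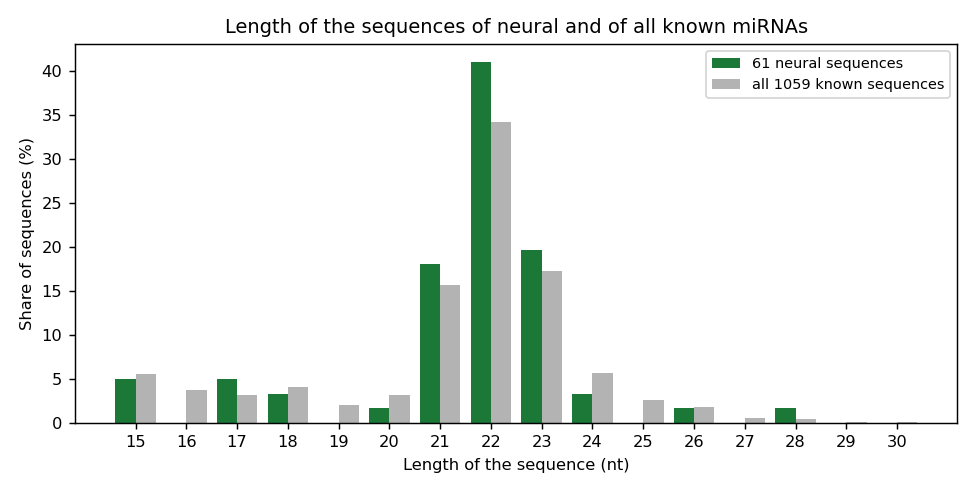
Share of sequences, in percent, at each length from 15 to 30 nt for the 61 neural sequences (green) and all 1059 known sequences (grey). Both peak at 22 nt, with 41.0% of the neural and 34.2% of all known sequences.

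Without a genome position were 12 of the 61 sequences, or 19.7% (10.6 to 31.8), close to the 21.7% over all known sequences. They held 2967 reads, 2.04% of the neural reads, of which omy-mir-132-5p had 63.1%. For 9 names no sequence was placed, and 8 of these are spelled mir, not miR. The short ones are shown because they differ most in size from the other members. Seeds are again in capitals.
omy-mir-132-5p, 1872 reads: cACAGUCUccauggu
omy-mir-219-1-5p, 358 reads: aGAUUGAUcguccaaagg
omy-mir-138-5p, 81 reads: aGGACAGAcaccucc
omy-mir-9-7-5p, 68 reads: uUUUUCUCuuugguuuc
omy-mir-128-2-5p, 59 reads: cAUGGGUCugucggu
omy-mir-138-2-3p, 14 reads: uCCUUCACaacaccagc
omy-mir-153c-5p, 14 reads: aUCAAUAGgucccuggu
The other 2 names without a position are omy-mir-219-2-3p and omy-miR-128-1-5p, which had 386 and 78 reads in sequences of 21 to 23 nt. All 6 neural sequences shorter than 18 nt were among the unplaced, as were 81.7% of such sequences over all known miRNAs. Spelling and position went together in the same way over the whole table, with 59.8% of mir sequences and 10.5% of miR sequences unplaced.

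The letters of the 13 names spelled mir were compared with the other sequences of their family. For 3 of them, omy-mir-138-2-3p, omy-mir-124a-5-5p and omy-mir-219-2-3p, the longest shared run was with their own family, 12 or 13 bases against 9 with any known sequence of another family. For the other 10 it was as long or longer with another family. The other families hold many more sequences, in which long runs are easier to find, and a run ends at each substitution, so this count does not show that a name is wrong. omy-mir-132b-3p, for example, had a run of 5 with omy-miR-132-3p but differs from it at 3 of 22 bases only. omy-mir-128-2-5p shared 5 bases with a miR-128 sequence and 10 with omy-mir-99-1-3p, and omy-mir-138-5p shared 5 and 7. Only sequences of the deposited table were compared, and the miRBase entries behind the names were not used here. For omy-mir-153a-5p no other 5p sequence of its family had a genome position.

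The reads of the neural families were next set beside those of related lists. The sensory cluster of miR-96, miR-182 and miR-183, known from hair cells and retina, had 201879 reads in 8 names, or 2.63% (2.62 to 2.64) of known reads, and the muscle families miR-1, miR-133 and miR-206 had 416773 in 14 names, or 5.42% (5.41 to 5.44). Both lie above the 1.89% of the neural list, with intervals that do not overlap. The lists differ in their families and sequences, and the intervals cover counting error only. miR-182 with 125412 reads (124719 to 126108) and miR-9 with 124055 were adjacent in the order of families, and their intervals overlap slightly. Other families known from neural or endocrine cells, miR-7, miR-135, miR-204, miR-218 and miR-375, had 9023, 15994, 8675, 7587 and 17831 reads. Each of these was above the 7493 reads of miR-124, and the interval of miR-218 (7417 to 7760) overlaps that of miR-124.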

How the data were processed

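Small RNA of eggs was sequenced by the authors on an Illumina GAIIx as 1 library from pooled RNA for each of 3 ages. The deposited values are whole numbers of reads, taken here as counts, which the authors made with ACGT101-miR 3.5 by removing low-quality, adapter, simple sequences, sequences with a copy number below 10 and matches to mRNA, Rfam and repeats, and by comparing the rest with miRBase 21. The stated limit on length was 26 nt, while deposited known sequences reached 30 nt. Each unique sequence has 1 number of reads, 7684127 in known and 333447 in predicted miRNAs. Spaces were removed from names, reads were summed by name and by family number, and the sequence with most reads is called the main one of its name. A start was called other where a sequence shared 12 or more bases with the main one at a shifted position. Duplexes were computed with RNAduplex 2.7.2. All 44 members were chosen, and the lists and alternatives set, with earlier results of these data known. Names with 1000 or more reads, the leading name of each arm, names sharing a hairpin or within 10 kb and names without a position are given in full, and others by range and count. Neither a test nor a p-value is given, because no library has a replicate. PCR reads are not independent molecules. Intervals and run finding were tested on simulated data. Alternatives on position, length, spelling, main sequences and a minimum of 50 reads were tried. The calculations were done in Python 3.11.15 with SciPy 1.17.1, numpy 2.4.6 and pandas 2.3.3, and figures with matplotlib 3.10.9.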

Additional observations from a re-analysis of the deposited data

How the results depend on the processing

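The share of neural miRNAs in the reads of known miRNAs, 1.89%, was 1.94% with sequences of 20 to 24 nt only, 2.49% with the most abundant sequence of each name only and 1.81% with predicted miRNAs in the total. With omy-miR-9-5p left out of both the list and the total it was 0.543%, so that it rested mostly on 1 miRNA. With the miR-9 family left out of both, an alternative chosen after seeing the data, it was 0.278%. Over the full total the share without that family was 0.274%, as given above. The other 3 alternatives stayed within the counting interval of the 1.89%. The 5p share of miR-132, 55.6%, was 8.66% with a genome position only, 8.66% with 20 to 24 nt only and 8.81% with names spelled miR only, each of which leaves out omy-mir-132-5p. Of 50 alternatives on the 5p share of families, 34 stayed within the interval, 13 moved on the same side and these 3 changed side. Those that moved over 1.5 times were miR-219, miR-128 and miR-153, the last at 6.54% with at least 50 reads. Of 50 on the reads of families, 8 were over 1.5 times lower. They were miR-132 at 1767, 1767 and 1736 and miR-219 at 632 with positions only and 621 with names spelled miR only. The rest were miR-124 at 4818 and miR-137 at 248 with main sequences only, and miR-212 at 62 with at least 50 reads. No library could be left out. No paired analysis was possible because the read numbers name no library.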

Other observations

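The comparison below was chosen after the values were seen. Allowing 1 gap of up to 6 bases, the 15 bases of omy-mir-132-5p matched omy-miR-132-3p over 14 bases, as 2 runs of 7 with 4 bases of omy-miR-132-3p skipped. The best such match with a sequence of another family was 11 bases. The matching runs are in capitals.
omy-mir-132-5p: cACAGUCUCCAUGGU
omy-miR-132-3p: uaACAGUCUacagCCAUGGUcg
In the same way omy-mir-219-1-5p matched omy-miR-219-5p over 11 bases with 4 of its own bases skipped, and another family over 9. For the other 11 names spelled mir the gapped match was shorter with their own family than with another, and 9 of these had none with their own. Such a match needs a gap, so it misses sequences that differ by substitutions only. omy-mir-124a-5-5p, which differs from omy-miR-124-5p at 1 of 22 bases, was among the 9. The count therefore does not show that a name is wrong. The 2 shown were the only ones with a longer gapped match in their own family.
omy-mir-219-1-5p: aGAUUgaucGUCCAAAgg
omy-miR-219-5p: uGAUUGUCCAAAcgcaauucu
By their letters, the most read entry named 5p of miR-132 was thus closest to the 3p arm of its family. The origin of these 2 sequences was not tested.

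No predicted miRNA was placed within 10 kb of a neural miRNA. How often one lies that near to any known miRNA was not computed, so this is not shown to be particular to the neural names. The seed of 1 predicted miRNA, omy-miR-nov-283-3p with 8139 reads, is the GGGGCCG of the 5p arm of miR-128, whose 3 names with that seed had 156 reads.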
